A study of Mus musculus with 5 samples.

Results

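Scgb1a1, Scgb3a1, Scgb3a2, Bpifa1 and Cyp2f2 are genes of the secretory cells that line the conducting airways. They were taken by exact symbol from the 42454 features counted in each of 5 droplet single-cell RNA libraries of mouse lung, so 5 of 42454 features are described here. The genes were chosen by measured values of these libraries, namely their counts per cell class, their low-level spread over other cells and their change between libraries, so all levels and ratios of the 5 genes below are descriptions and none was tested.

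All lungs came from C57BL/6J mice that breathed air or 95% O2 for 3 days from birth, the hyperoxia model of bronchopulmonary dysplasia, and then room air. The 4 unsorted libraries were air at postnatal day (pnd) 7, hyperoxia at pnd7, air at pnd60 and hyperoxia at pnd60, and the fifth held cells from hyperoxic lungs at pnd7 that were sorted for the senescence dye C12FDG after pooling 3 mice. The number of mice behind each unsorted library was not given in the sources used here, and these 4 libraries came from an earlier experiment of the same group. With 1 library per condition there was no spread between replicates, so no p-value is given and each interval is a 95% interval that covers counting error only.

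Club cells are the main secretory cells of the mouse bronchiole. They release small secreted proteins called secretoglobins into the airway lining fluid, carry cytochrome P450 enzymes that metabolise inhaled compounds, and serve as progenitors for ciliated cells. In the larger airways and the submucosal glands, secretory cells also make mucins, antimicrobial lectins and BPI fold proteins. Scgb1a1 encodes the club cell secretory protein (CC10, uteroglobin), the classical marker of these cells. Scgb3a2 encodes a secretoglobin of the distal airway, Scgb3a1 encodes one that is made mainly in the proximal airway, Bpifa1 encodes the secreted antimicrobial and surfactant-like protein SPLUNC1, and Cyp2f2 encodes the club cell P450 that oxidises naphthalene.

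In mouse assembly GRCm38.p6, Scgb1a1 lies on the minus strand at chr19:9083642-9087956 with 3 exons, Scgb3a1 on the plus strand at chr11:49663595-49665118 with 4 exons, Bpifa1 on the plus strand at chr2:154142880-154149217 with 9 exons and Cyp2f2 on the plus strand at chr7:27119955-27133660 with 10 exons. The 250 bases before the transcription start of 3 of these genes, from RefSeq, are shown because the results below turn on 2 genes whose counts lay in the same few barcodes, Scgb3a1 and Bpifa1, and on Cyp2f2, which was spread more widely. Capitals mark matches to 4 motifs that were searched on both strands, namely CAAGTG (bound by NKX2-1), TNTTTAC (FOXA), TTGCNNAA (CEBP) and TATAAA (the TATA box).
Scgb3a1 (chr11:49663345-49663594, plus strand): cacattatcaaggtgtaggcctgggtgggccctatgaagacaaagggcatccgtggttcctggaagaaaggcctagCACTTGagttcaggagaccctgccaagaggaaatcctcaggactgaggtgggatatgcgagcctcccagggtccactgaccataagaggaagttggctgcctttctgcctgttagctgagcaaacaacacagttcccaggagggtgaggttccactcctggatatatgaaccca
Bpifa1 (chr2:154142630-154142879, plus strand): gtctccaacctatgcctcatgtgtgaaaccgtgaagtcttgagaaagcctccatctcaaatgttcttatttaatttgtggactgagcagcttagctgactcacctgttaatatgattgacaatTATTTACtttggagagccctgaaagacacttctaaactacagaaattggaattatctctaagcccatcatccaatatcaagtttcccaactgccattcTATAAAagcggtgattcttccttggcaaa
Cyp2f2 (chr7:27119705-27119954, plus strand): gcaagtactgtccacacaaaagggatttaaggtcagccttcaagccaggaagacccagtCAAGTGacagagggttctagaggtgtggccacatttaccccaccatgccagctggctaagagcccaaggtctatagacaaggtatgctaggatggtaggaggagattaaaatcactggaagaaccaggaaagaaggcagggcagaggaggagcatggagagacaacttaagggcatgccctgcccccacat
Scgb3a1 and Cyp2f2 each held the NKX2-1 letters, on the minus strand 174 bases before the start of Scgb3a1 and on the plus strand 191 bases before that of Cyp2f2. Bpifa1 held the FOXA letters 127 bases and the TATA box letters 29 bases before its start, and the CEBP letters were in none of the 3 windows. Windows of this length before 32851 genes held the NKX2-1 letters in 11.6%, the FOXA letters in 10.9%, the CEBP letters in 9.56% and the TATA box letters in 12.4% of cases. A match of letters is a description and not a measured binding site.

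The deposited matrices held 4243 barcodes for air pnd7, 2664 for hyperoxia pnd7, 569 for C12FDG-sorted hyperoxia pnd7, 5128 for air pnd60 and 5632 for hyperoxia pnd60, with 8006284 to 29873688 counts per library. Any 2 libraries shared 0 to 7 barcodes. Cells were kept with over 700 and under 8000 genes and under 5% mitochondrial counts, which left 13200 cells (2308, 1246, 493, 4397 and 4756 in the order above) with a median depth of 2168 to 15529 counts. Scrublet marked 0 to 157 doublets per library, which were left in. It marked 0 and 4 cells in the 2 unsorted libraries of pnd7, so doublets there were in effect not called. Hemoglobin genes took 3.38% of the counts of kept cells in air pnd7, 2.22% in hyperoxia pnd7 and under 0.3% in the other libraries. The sorted library stood apart because 466 of its 493 cells (94.5%) were leukocyte-like and 0 were club-like or ciliated-like, although the unsorted hyperoxia library of the same day held both.

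Scgb1a1 was the gene with the most counts of the 5, and its counts sat in a few barcodes of very high depth. Taking each barcode of a library together, Scgb1a1 had 100773 counts in air pnd7, 63343 in hyperoxia pnd7, 24 in the sorted library, 159057 in air pnd60 and 330847 in hyperoxia pnd60. Between 22.1% and 82.2% of the counts in the unsorted libraries came from barcodes over the limit of 8000 genes, of which there were 15, 28, 3 and 10 (air and hyperoxia pnd7, then air and hyperoxia pnd60). Those barcodes held 46174 Scgb1a1 counts (45.8% of the total) in air pnd7 and 52092 (82.2%) in hyperoxia pnd7. At pnd60 they held 35164 (22.1%) in air and 229597 (69.4%) in hyperoxia. In both ages the larger share of Scgb1a1 was therefore above the gene limit in the hyperoxia library and was left out of the kept cells.

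**Figure D1:**
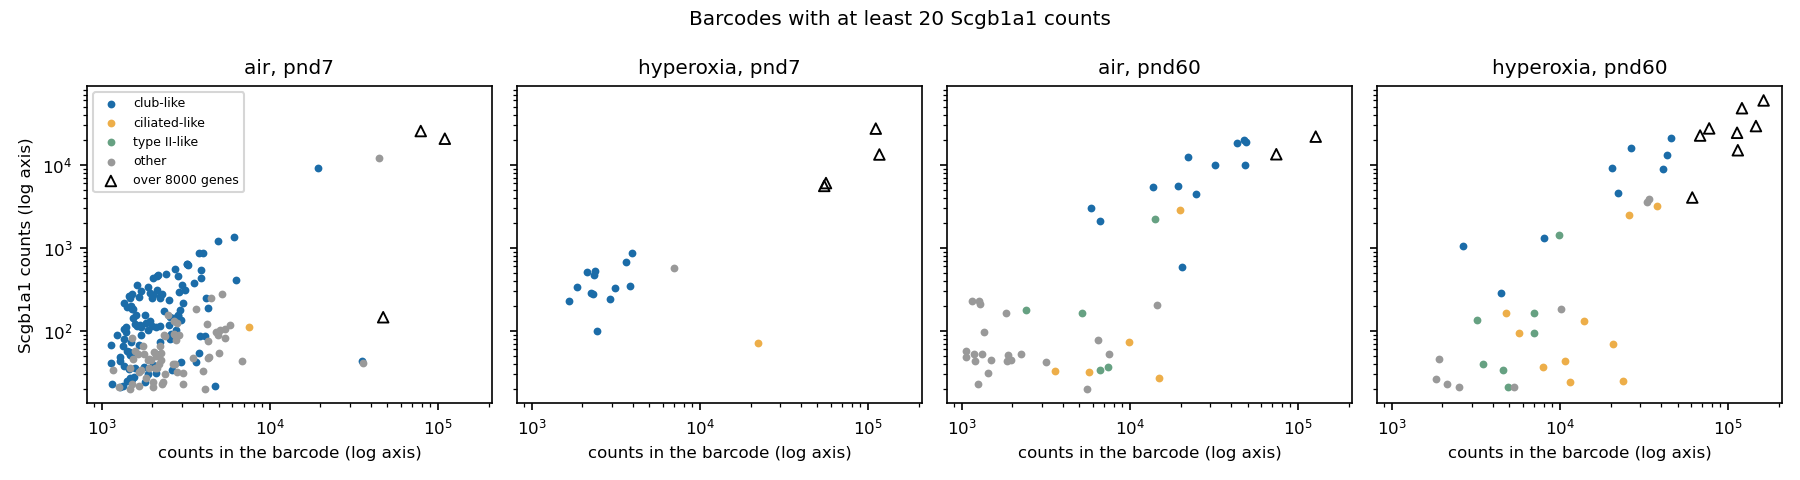
Each point is 1 barcode with at least 20 Scgb1a1 counts, plotted by its total counts and its Scgb1a1 counts, both on log axes, with 1 panel per unsorted library. Filled points are kept cells coloured by class and open triangles are barcodes with over 8000 genes. Of the barcodes with at least 1000 Scgb1a1 counts, 2 of 6 in air pnd7, 4 of 4 in hyperoxia pnd7, 2 of 15 in air pnd60 and 8 of 21 in hyperoxia pnd60 had over 8000 genes.

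The barcodes above 8000 genes that were rich in Scgb1a1 carried airway genes. In the 2 such barcodes of air pnd7 with at least 1000 Scgb1a1 counts, Scgb1a1 took 18.7% and 32.2% of all counts, and in the 4 of hyperoxia pnd7 it took 10.1% to 24.5%. The 2 of air pnd60 had 17.1% and 18.0%, and the 8 of hyperoxia pnd60 had 6.59% to 39.7%. Across these 16 barcodes the summed club cell markers, which did not include the 5 genes, took 1.37% to 3.07% of the counts, and the summed ciliated cell markers 0.00166% to 1.01%. By the profile of all genes other than the left-out families, 15 of the 16 lay nearest to the ciliated-like cluster 41 and 1 nearest to a type II-like cluster, and none nearest to a club-like cluster. Whether these were single large cells or droplets with more than 1 cell was not tested.

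**Figure D2:**
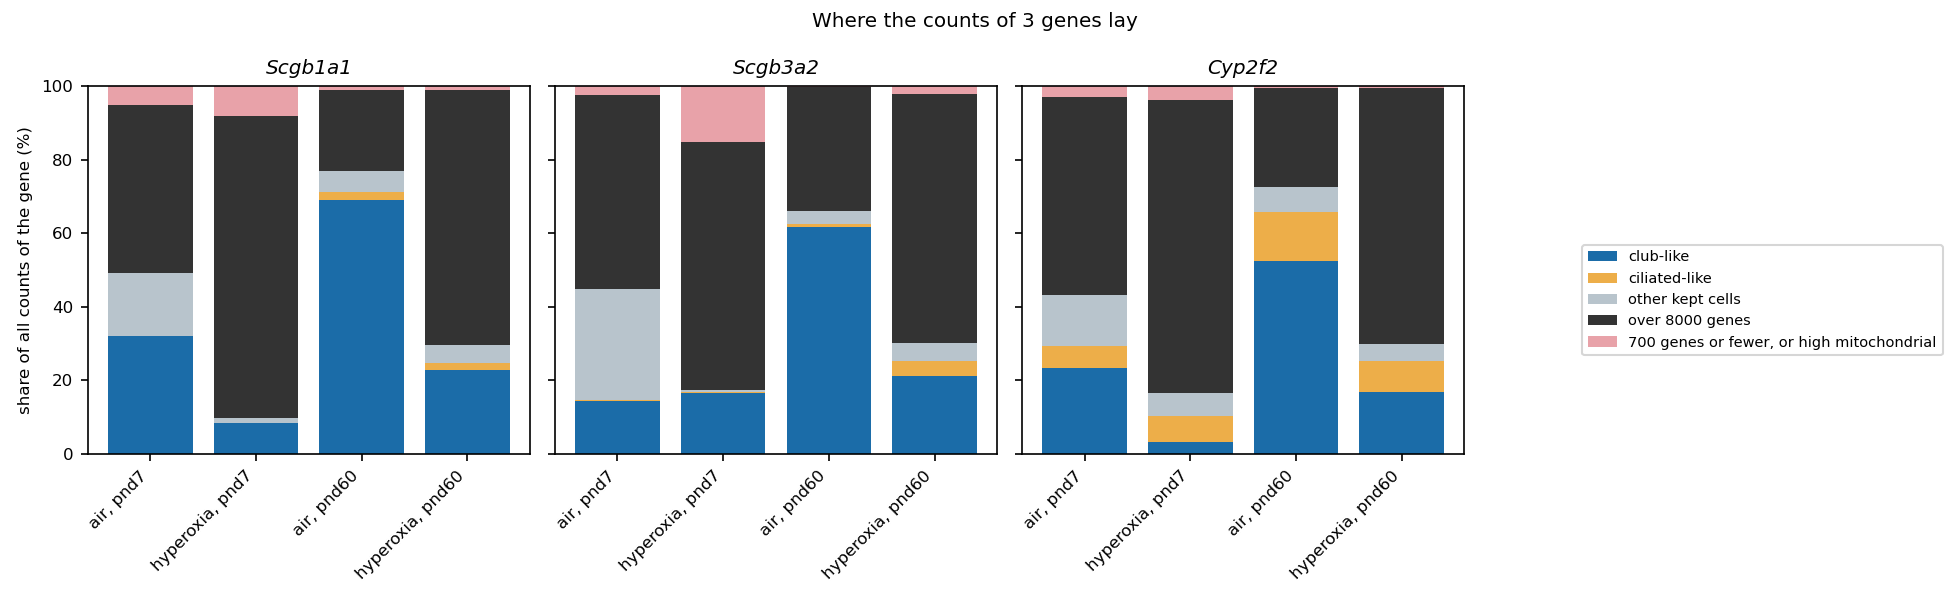
Stacked bars show, for Scgb1a1, Scgb3a2 and Cyp2f2 in each unsorted library, the percentage of all counts of the gene that lay in club-like cells, ciliated-like cells, other kept cells, barcodes over 8000 genes, and barcodes with 700 genes or fewer or a high mitochondrial share. The part over 8000 genes held 82.2%, 67.5% and 79.7% of the 3 genes in hyperoxia pnd7 and 69.4%, 67.7% and 69.6% in hyperoxia pnd60, against 45.8%, 52.9% and 53.8% in air pnd7 and 22.1%, 33.7% and 26.9% in air pnd60.

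Among kept cells, the 5 genes together took 0.323% of the counts in air pnd7, 0.0595% in hyperoxia pnd7, 0.000431% in the sorted library, 0.968% in air pnd60 and 0.644% in hyperoxia pnd60. Scgb1a1 stood at 2970 CPM (counts scaled to 1000000 counts of the same cells or barcodes; interval 2943 to 2996) in air pnd7 and 450 (439 to 461) in hyperoxia pnd7. It stood at 8299 CPM (8253 to 8346) in air pnd60 and 5909 (5872 to 5947) in hyperoxia pnd60, and at 3.05 (1.95 to 4.53) in the sorted library. The order from high to low was air pnd60, hyperoxia pnd60, air pnd7, hyperoxia pnd7 and sorted, and no neighbouring intervals overlapped. Single cells weighed heavily in this order, since 1 cell held 24.3% of the Scgb1a1 counts in air pnd7 and 1 cell held 21.5% in hyperoxia pnd60. With each barcode included the order changed to hyperoxia pnd60 at 18059 CPM, air pnd60 at 9999, air pnd7 at 3373 and hyperoxia pnd7 at 2409.

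Scgb3a2 differed least between the 4 unsorted libraries. In kept cells it stood at 215 CPM in air pnd7, 123 in hyperoxia pnd7, 256 in air pnd60 and 140 in hyperoxia pnd60, and it had 4 counts in the sorted library. With each barcode included it stood at 268, 365, 359 and 417 CPM in the same order of unsorted libraries. The hyperoxia libraries were thus below their air controls among kept cells and above them over all barcodes.

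Scgb3a1 and Bpifa1 were genes of the pnd60 libraries. Scgb3a1 had 6 counts in kept cells of air pnd7, 2 in hyperoxia pnd7 and 1 in the sorted library, against 3739 counts (254 CPM) in air pnd60 and 837 (50.6 CPM) in hyperoxia pnd60. Bpifa1 had 0 counts in each pnd7 library, also with each barcode included. In kept cells the floor of 3 counts used in ratios corresponds to 0.180 CPM in air and 0.221 CPM in hyperoxia. The upper limits of the intervals there were 0.222 and 0.272 CPM. At pnd60 Bpifa1 had 6125 counts (415 CPM, 405 to 426) in air and 207 (12.5 CPM, 10.9 to 14.4) in hyperoxia. With each barcode included, Scgb3a1 reached 6 counts in air pnd7 and 23 in hyperoxia pnd7, 19 of the latter in 1 barcode that also had 6015 Scgb1a1 counts.

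Cyp2f2 in kept cells stood at 47.1 CPM in air pnd7, 21.9 in hyperoxia pnd7, 459 in air pnd60 and 323 in hyperoxia pnd60, with 5 counts in the sorted library. Over all barcodes it stood at 60.7, 68.2, 586 and 975 CPM. As for Scgb3a2, the hyperoxia library was lower than air among kept cells and higher over all barcodes at both ages.

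**Figure D3:**
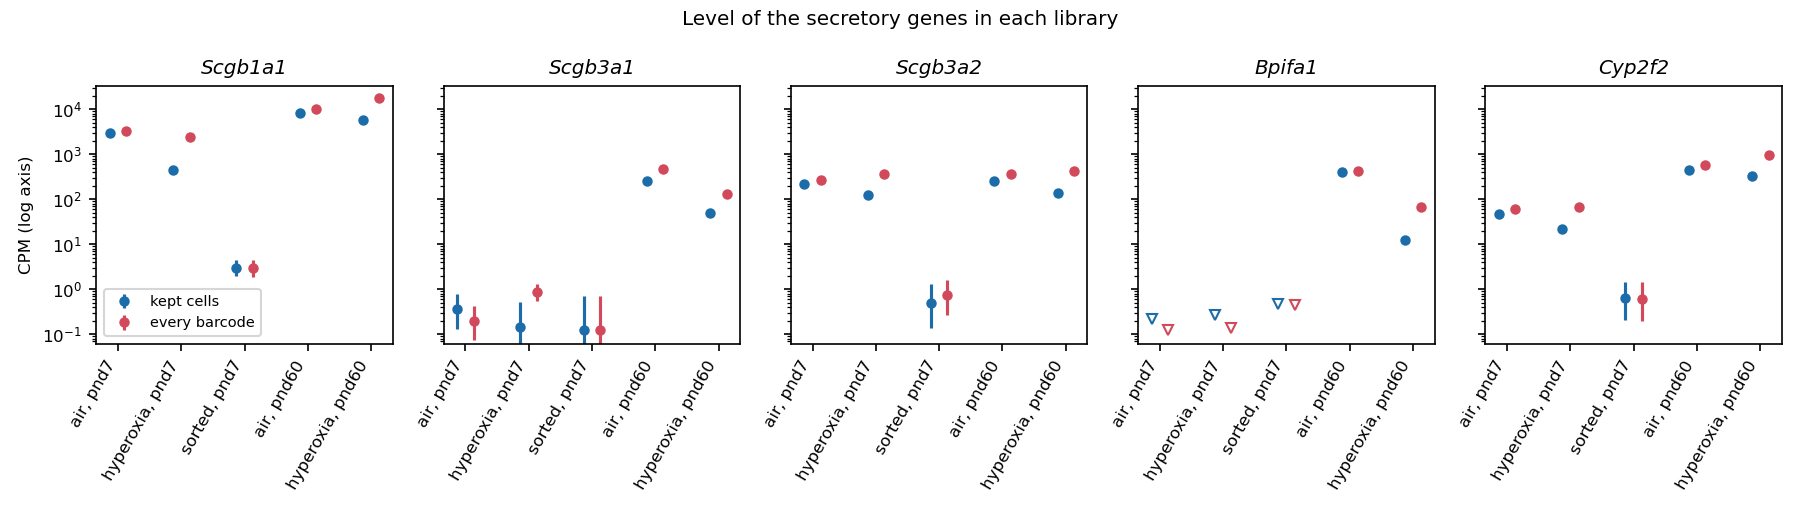
Level of each gene in CPM (log axis) in the 5 libraries, with 1 panel per gene, over kept cells and over all barcodes, with bars for the exact Poisson 95% interval of the counts and open triangles at the upper limit where the count was 0. Scgb3a1 and Bpifa1 are near or at 0 in the 3 pnd7 libraries, and the hyperoxia pnd60 point of Scgb1a1 moves from 5909 CPM in kept cells to 18059 CPM over all barcodes, above air pnd60.

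The question of the design was whether neonatal hyperoxia left a mark on lung cells at pnd7 and after recovery at pnd60. Among kept cells at pnd7, the log2 ratio of hyperoxia to air was -2.72 (-2.76 to -2.68) for Scgb1a1, -0.81 (-0.89 to -0.72) for Scgb3a2 and -1.11 (-1.30 to -0.91) for Cyp2f2, and that of Scgb3a1, with 8 counts in all, was -1.29 (-4.63 to 1.19). A gene was called here when it had at least 100 counts in both libraries together, a log2 ratio of at least 1 in size and an interval that left out 0. By that rule 2 of the 3 genes with enough counts were lower in hyperoxia, Scgb1a1 and Cyp2f2, where 0.802% of all genes with enough counts were lower and 0.183% higher. The median of the 4 ratios was -1.20, beside -0.02 over all genes.

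Among kept cells at pnd60, the log2 ratio was -0.49 (-0.50 to -0.48) for Scgb1a1, -0.87 for Scgb3a2 and -0.51 for Cyp2f2. It was -2.32 (-2.43 to -2.22) for Scgb3a1 and -5.05 (-5.26 to -4.85) for Bpifa1. Both of the last were called lower, 2 of 5 genes, where 0.248% of all genes were lower and 0.271% higher. The median of the 5 ratios was -0.87, beside 0.01 over all genes. The cells behind these ratios were few, since the 10 cells richest in the gene held 98.6% of Bpifa1 and 97.9% of Scgb3a1 in air pnd60. The same single cell held 60.1% of Bpifa1 and 33.9% of Scgb3a1. The 2 richest club-like cells held 91.7% of Bpifa1 and 60.7% of Scgb3a1 there.

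These ratios depended on the upper gene limit. With each barcode included, the log2 ratio at pnd7 was -0.49 (-0.50 to -0.47) for Scgb1a1, 0.44 for Scgb3a2, 0.17 (0.07 to 0.26) for Cyp2f2 and 2.12 (0.79 to 3.71) for the 29 counts of Scgb3a1, and 0 genes were called (0.27% of all genes were higher and 0.757% lower). At pnd60 it was 0.85 for Scgb1a1, 0.21 for Scgb3a2 and 0.73 for Cyp2f2. The direction at pnd60 thus turned for these 3 genes. Scgb3a1 at -1.80 (-1.87 to -1.73) and Bpifa1 at -2.60 (-2.68 to -2.51) were called lower in both sets of barcodes, and with each barcode included 0.206% of all genes were lower and 0.411% higher. Dropping only the upper gene limit gave -0.57 and 0.83 for Scgb1a1 at pnd7 and pnd60, -1.99 for Scgb3a1 at pnd60 and -2.78 for Bpifa1.

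**Figure D4:**
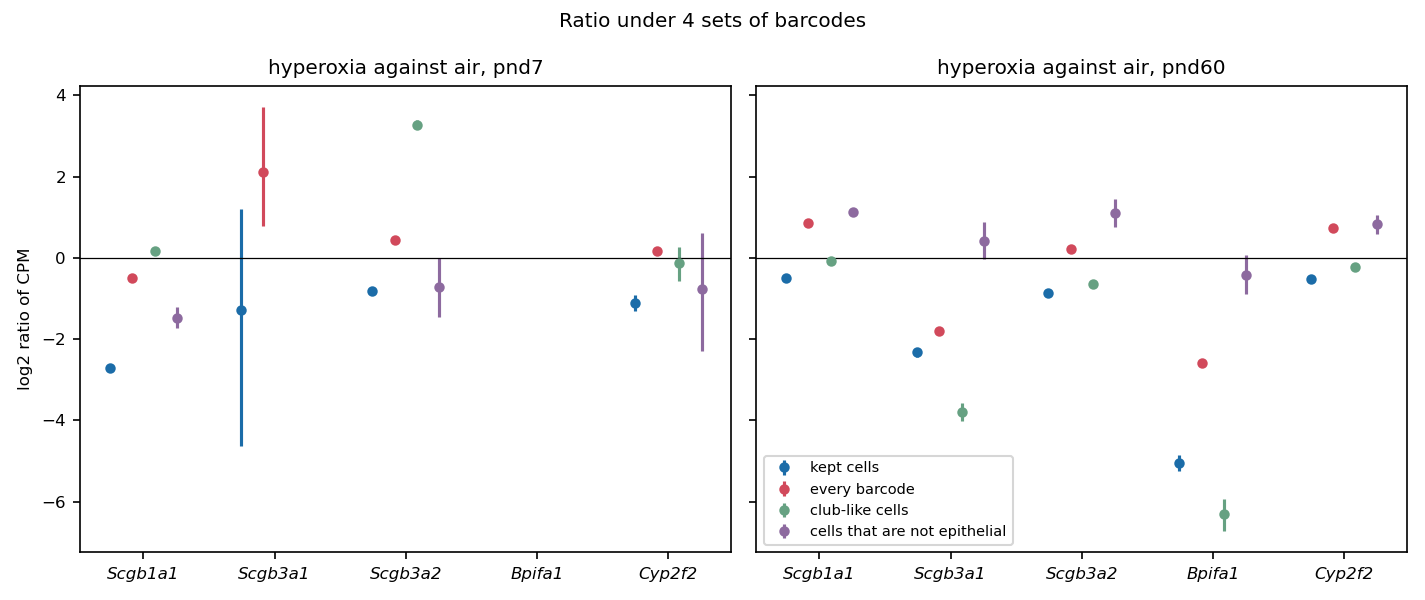
The log2 ratio of CPM of hyperoxia to air for each gene at pnd7 and pnd60, with bars for the binomial 95% interval, in kept cells, all barcodes, club-like cells and cells that are not epithelial (ratios that rest on a count of 0 are left out). At pnd60 Scgb1a1 lies at -0.49 in kept cells and 0.85 over all barcodes, and Bpifa1 lies below 0 in the 4 sets, from -6.32 in club-like cells to -0.41 (-0.89 to 0.06) in cells that are not epithelial.

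Club-like cells, the clusters 43 and 30 named from 13 club cell markers with the 5 genes and their families left out of the clustering, numbered 136 (5.89% of kept cells) in air pnd7, 23 (1.85%) in hyperoxia pnd7, 13 (0.296%) in air pnd60 and 12 (0.252%) in hyperoxia pnd60. They held 62.7%, 84.8%, 89.6% and 75.0% of the counts of the 5 genes in the kept cells of those libraries. The class was not uniform, because cluster 30 also raised each of 13 ciliated cell markers and cluster 43 raised none of them. Foxj1, the master regulator of motile cilia, had counts in 47 of the 136 club-like cells of air pnd7, 1 of 23 in hyperoxia pnd7, 7 of 13 in air pnd60 and 6 of 12 in hyperoxia pnd60. Air pnd7 had 111 cells in cluster 30 and 25 in cluster 43, and hyperoxia pnd7 had 2 and 21. The pnd60 libraries had 7 and 6 (air) and 6 and 6 (hyperoxia). Median depth was 1932 and 2252 counts per cell at pnd7 against 22012 and 20879 at pnd60, and hemoglobin genes took 9.06% and 12.7% of the counts of club-like cells at pnd7 against under 0.005% at pnd60.

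Scgb1a1 took 85935 CPM of the club-like cells in air pnd7, 97022 in hyperoxia pnd7, 327270 in air pnd60 and 312340 in hyperoxia pnd60. The median club-like cell gave 5.12%, 8.19%, 31.6% and 21.1% of its counts to this 1 gene. The log2 ratio of hyperoxia to air in these cells was 0.18 (0.13 to 0.22) at pnd7 and -0.07 at pnd60. The value at pnd7 was far smaller in size than the ratio of -2.72 among all kept cells of that age. In cluster 43 alone the signs at both ages were the opposite, -0.51 at pnd7 and 0.10 (0.084 to 0.120) at pnd60. The value at pnd7 rested on 1 cell of air, which gave 9014 of the 9511 Scgb1a1 counts of that cluster. The median cell of cluster 43 gave 0.745% of its counts to Scgb1a1 in air pnd7 and 9.11% in hyperoxia pnd7. Fewer such cells and less RNA in each cannot be told apart in a sum over all cells.

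Scgb3a2 differed most at pnd7 inside the class, with 3070 CPM in air and 29709 in hyperoxia, a log2 ratio of 3.27 (3.16 to 3.39). It was the 1 gene called of 3 with enough counts, in a class where 6.91% of 463 genes were higher and 15.8% lower. The clusters that made up the class were not the same in both libraries, so the level was also taken inside cluster 43, where Scgb3a2 stood at 7330 CPM in 25 cells of air and 31452 in 21 cells of hyperoxia (log2 ratio 2.10, 1.95 to 2.25). A single cell gave 463 of the 476 Scgb3a2 counts of cluster 43 in air, and 9 of 25 cells had any, against 13 of 21 in hyperoxia with at most 249 counts in a cell. In the barcodes with at least 1000 Scgb1a1 counts, which in hyperoxia pnd7 were all over 8000 genes and so other barcodes than the club-like cells, the median share of Scgb3a2 was 2.10% in the 6 of air pnd7 and 1.60% in the 4 of hyperoxia pnd7. In barcodes with 700 genes or fewer Scgb3a2 stood at 16.1 CPM in air pnd7 and 142 in hyperoxia pnd7. Of the summed counts of the genes described here, Scgb3a2 took a like share in club-like cells and in those barcodes. In air pnd7 the shares were 3.41% and 3.59%, and in hyperoxia pnd7 they were 23.3% and 21.8%. A higher Scgb3a2 level in hyperoxia pnd7 was thus also seen in low-gene barcodes, though 2.81% of them held a count against 3.76% in air. In cells that were not epithelial Scgb3a2 was lower in hyperoxia pnd7, at 2.83 CPM against 4.65 in air. Whether the club-like cells and the low-gene barcodes held RNA from a shared pool was not tested.

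Scgb3a1 and Bpifa1 were at 0 in the club-like cells of both pnd7 libraries. In air pnd60 the class gave 3642 Scgb3a1 counts (10846 CPM) and 6022 Bpifa1 counts (17934 CPM), and in hyperoxia pnd60 188 (784 CPM) and 54 (225 CPM). The log2 ratio was -3.79 (-4.01 to -3.58) for Scgb3a1 and -6.32 (-6.73 to -5.93) for Bpifa1, the 2 of 5 genes called lower where 3.51% of 513 genes were lower and 2.14% higher. Scgb3a2 at -0.64 and Cyp2f2 at -0.22 were not called. In cluster 43, with 6 cells in each library, the ratios were -3.04 for Scgb3a1 and -6.15 for Bpifa1. In ciliated-like cells at pnd60 the ratios had the opposite sign, at 5.57 (4.63 to 6.71) for the 535 Scgb3a1 counts of hyperoxia against 9 of air, 2.12 (1.70 to 2.56) for Scgb3a2 and 4.40 (2.80 to 6.70) for the 79 Bpifa1 counts against 3. A single ciliated-like cell of hyperoxia held 534 of these 535 Scgb3a1, 260 of the 304 Scgb3a2 and 78 of the 79 Bpifa1 counts.

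Scgb3a1 and Bpifa1 came from the same cells. Of the 13 club-like cells of air pnd60, 4 held both genes, 1 held Scgb3a1 without Bpifa1 and 0 held Bpifa1 without Scgb3a1, and in hyperoxia pnd60 2 of 12 held both and 0 held 1 of the pair. In air, the richest of them had 47807 counts, of which 19853 were Scgb1a1, 3681 Bpifa1 and 1266 Scgb3a1. Another had 24842 counts with 4402 Scgb1a1, 1934 Bpifa1 and 1005 Scgb3a1, and a smaller one had 6625 counts with 2093 Scgb1a1, 402 Bpifa1 and 386 Scgb3a1. The fourth was unlike these, with 984 Scgb3a1 counts but 5 Bpifa1 counts among 48432. In hyperoxia pnd60 the richest kept cell was ciliated-like, with 534 Scgb3a1 and 78 Bpifa1 counts among 37664, which was 63.8% and 37.7% of all kept counts of these genes in that library.

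Because the upper gene limit took out so many counts, the barcodes with over 700 genes and at least 1000 Scgb1a1 counts were also described with no upper limit and no clustering. There were 6 in air pnd7, 4 in hyperoxia pnd7, 15 in air pnd60 and 21 in hyperoxia pnd60, which was 0.258% (0.0948 to 0.561), 0.314% (0.0856 to 0.802), 0.341% (0.191 to 0.562) and 0.441% (0.273 to 0.673) of such barcodes. The intervals of hyperoxia and air overlapped at both ages. These barcodes held 72.8%, 89.5%, 94.9% and 97.4% of the Scgb1a1 counts of their libraries, and Scgb1a1 took a median of 25.6%, 11.0%, 31.0% and 21.4% of their counts. The median depth of the chosen barcodes differed, at 32029, 83632, 24842 and 41042 counts, and the part of depth in these shares was not tested.

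At pnd60 the Scgb1a1-rich barcodes fell into those with and those without Scgb3a1. At least 0.1% of the counts were Scgb3a1 in 5 of 15 barcodes (33.3%, 11.8 to 61.6) of air and in 4 of 21 (19.0%, 5.45 to 41.9) of hyperoxia, intervals that overlapped. Bpifa1 reached 0.1% in 4 and 3 barcodes, and each of these also had Scgb3a1 at that share. In the barcodes with Scgb3a1, the level of Scgb3a1 itself was 35859 CPM in air and 11599 in hyperoxia, and that of Bpifa1 was 32382 CPM in air and 5973 in hyperoxia. So both the number of such barcodes and the level inside them were lower in hyperoxia, and with 5 and 4 barcodes 1 of them could decide either value.

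Other genes went with Scgb3a1 in these barcodes, named after their values were seen. Reg3g, an antimicrobial lectin, had 955 counts in all 5 barcodes with Scgb3a1 and 0 in the 10 without in air, and 233 counts in all 4 with and 0 in the 17 without in hyperoxia. Tff2, a trefoil peptide of mucus, had 234 against 0 counts in air and 142 against 0 in hyperoxia. Bpifb1, a secreted BPI fold protein, stood at 4597 CPM against 0 in air and 2966 against 14.4 in hyperoxia, and Muc5b, the main airway mucin, at 1887 against 80.7 and 1734 against 10.5. Cyp2a5, another airway P450, stood at 1481 CPM against 46.1 in air and 778 against 43.1 in hyperoxia.

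Scgb1a1 and Cyp2f2 were present on both sides of that division. Scgb1a1 stood at 245481 CPM in the barcodes with Scgb3a1 and 287957 in those without in air, and at 181036 and 276013 in hyperoxia. Cyp2f2 stood at 14613 and 13634 CPM in air and 15868 and 13077 in hyperoxia. Scgb3a2 was higher with Scgb3a1 than without, at 18591 against 5186 CPM in air and 10508 against 5148 in hyperoxia. Cbr2, a carbonyl reductase of club cells, was lower with Scgb3a1, at 12434 against 22214 CPM in air and 10567 against 16957 in hyperoxia.

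**Figure D5:**
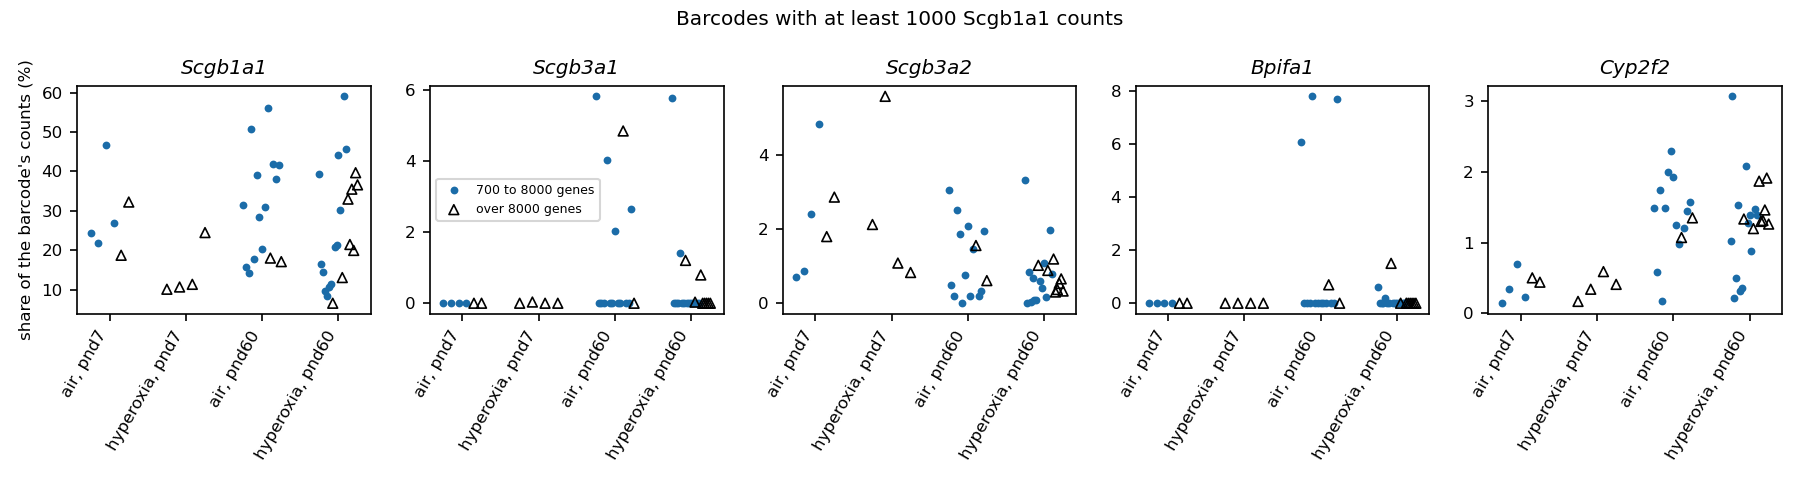
Each point is 1 barcode with at least 1000 Scgb1a1 counts, plotted by the percentage of its counts that each of the 5 genes took (1 panel per gene), in the 4 unsorted libraries. Scgb3a1 and Bpifa1 reach 0.1% in 5 and 4 of 15 barcodes in air pnd60 and in 4 and 3 of 21 in hyperoxia pnd60, and in none at pnd7, and the Cyp2f2 medians are 0.390% and 0.374% at pnd7 against 1.45% and 1.31% at pnd60.

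Cyp2f2 was also a gene of ciliated-like cells. These were 5, 4, 35 and 32 cells in air pnd7, hyperoxia pnd7, air pnd60 and hyperoxia pnd60, and each of them held Cyp2f2 counts. Their Cyp2f2 level was 1806 CPM in air pnd7, 1488 in hyperoxia pnd7, 4025 in air pnd60 and 3954 in hyperoxia pnd60. The pnd60 levels included ciliated-like cells that were also rich in Scgb1a1. In air, a cell with 2821 Scgb1a1 counts held 344 Cyp2f2 counts. In hyperoxia, cells with 3168 and 2451 Scgb1a1 counts held 575 and 126 Cyp2f2 counts. The part of these cells in the levels was not tested. In air pnd7 the interval of the ciliated-like cells (1488 to 2171 CPM) lay above that of the club-like cells (1018 to 1235) but overlapped that of cluster 43 alone (1800 to 2527). There 1 cell gave 135 of the 139 Cyp2f2 counts of cluster 43, and 5 of its 25 cells had any. In hyperoxia pnd7 the intervals of ciliated-like (1242 to 1768) and club-like cells (773 to 1336) overlapped, and at pnd60 the club-like cells were higher, at 14524 and 12472 CPM. Type II-like cells had 14.2 to 146 CPM. After each cell was thinned to 1000 counts, 100%, 75%, 85.7% and 81.3% of ciliated-like cells still held a Cyp2f2 count.

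Away from the airway classes, counts of the 5 genes lay in many cells, at levels that differed between classes. In endothelial-like, mesenchymal-like and leukocyte-like cells together, which should not make it, Scgb1a1 stood at 49.5 CPM in air pnd7, 17.9 in hyperoxia pnd7, 3.03 in the sorted library, 503 in air pnd60 and 1092 in hyperoxia pnd60. A Scgb1a1 count was found in 16.8%, 14.9%, 3.15%, 57.2% and 67.1% of these cells, at median depths of 6745, 8157, 15503, 1966 and 2099 counts, and in 4.26%, 2.46%, 0%, 34.5% and 39.1% after thinning to 1000 counts. Against this, 24.1%, 15.9%, 3.25%, 58.9% and 68.7% of all kept cells held a Scgb1a1 count, so a Scgb1a1 count in a cell did not by itself mark an airway cell. The 552 erythroid-like cells of air pnd7 stood apart from this background at 3111 CPM (3020 to 3203), with 9.10% of the Scgb1a1 counts of the kept cells, and 10 of them with at least 100 Scgb1a1 counts each held 1570 of the 4498. The 90 erythroid-like cells of hyperoxia pnd7 had 19.3 CPM. In type II-like cells Scgb1a1 stood at 1175 CPM in air pnd60, above the 503 of the background, and 3 of these cells held 2551 of the 3372 counts, 2208 of them in 1 cell. In hyperoxia pnd60 the type II-like level was 931 CPM, and 3 of these cells held 1740 of the counts. This level was below the background of 1092 CPM. It was above the 466 CPM of the background without its 3 cells with at least 100 Scgb1a1 counts. Type I-like cells had 463 and 273 CPM in air and hyperoxia pnd60.

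In those cells the log2 ratio of hyperoxia to air for Scgb1a1 was -1.47 at pnd7 (called lower, as were 0.909% of all genes, with 0.223% higher). At pnd60 it was 1.12 for Scgb1a1, 1.11 for Scgb3a2, 0.82 for Cyp2f2, 0.42 for Scgb3a1 and -0.41 for Bpifa1. Scgb1a1 and Scgb3a2 were called higher, 2 of 5 genes, where 0.288% of all genes were higher and 0.186% lower. Without the 5 cells of air and the 3 of hyperoxia that held at least 100 Scgb1a1 counts, the levels were 407 and 466 CPM and the log2 ratio was 0.20 for Scgb1a1, 0.81 (0.42 to 1.21) for Scgb3a2 and -0.01 (-0.29 to 0.27) for Cyp2f2, so neither call was left without these 8 cells. After thinning each cell to 1000 counts the 5 genes together stood at 777 CPM in air pnd60 and 709 in hyperoxia pnd60, the other order. Both of the largest, with 3857 and 3534 Scgb1a1 counts at depths of 33986 and 32705, were endothelial-like cells of hyperoxia pnd60 that Scrublet marked as doublets.

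Barcodes with 700 genes or fewer held the genes too. There Scgb1a1 stood at 429 CPM in air pnd7, 505 in hyperoxia pnd7, 1686 in air pnd60 and 4347 in hyperoxia pnd60. The median depth of these barcodes was 6754 counts in air pnd7 and 8110 in hyperoxia pnd7, above the 3915 and 7120 of kept cells. In air and hyperoxia pnd60 it was 887 and 784.5, below the 2168 and 2316 of kept cells. Low-gene barcodes of pnd7 and pnd60 were thus unlike in depth, which limits a comparison of their levels between ages. Levels over all barcodes include them and share this limit. The low-gene barcodes of hyperoxia pnd60 also held Scgb3a1 at 341 CPM and Bpifa1 at 172, against 19.8 and 9.90 in air pnd60, which was the opposite order to that of the kept cells. A single low-gene barcode of hyperoxia pnd60 had 890 of the 3545 Scgb1a1 counts there.

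With age, the levels of 4 of the 5 genes were higher. Between pnd7 and pnd60 in air, the log2 ratio among kept cells was 1.48 for Scgb1a1, 9.46 for Scgb3a1, 0.25 for Scgb3a2 and 3.29 for Cyp2f2, and Bpifa1 was at least 2305-fold higher at pnd60 than the floor of 3 counts at pnd7. All but Scgb3a2 were called higher, 4 of 5, where 15.1% of all genes were higher and 9.35% lower. In hyperoxia the log2 ratios were 3.72, 8.42, 0.18 and 3.88, and Bpifa1 was at least 56.7-fold higher, again 4 of 5 called higher where 19.1% were higher and 9.49% lower. With no upper gene limit the Scgb1a1 ratio was 0.97 in air and 2.37 in hyperoxia. When each cell was given equal weight, as a mean of CPM per cell, the median age ratio of the genes was 0.61 in air and 1.41 in hyperoxia, against 3.29 and 3.88 for the sums. Age and library cannot be told apart here, and the cells of the 2 ages differed in depth, with median counts per kept cell of 3915 and 7120 at pnd7 and 2168 and 2316 at pnd60.

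The Cyp2f2 change with age was also seen inside the Scgb1a1-rich barcodes, where its median share was 0.390% in air pnd7 and 0.374% in hyperoxia pnd7 but 1.45% in air pnd60 and 1.31% in hyperoxia pnd60. Scgb3a2 went the other way there, from 2.10% and 1.60% at pnd7 to 0.757% and 0.610% at pnd60. In club-like cells the 5 genes were each higher at pnd60 than at pnd7 in air, where 10% of genes were higher and 28.7% lower. In hyperoxia 3 of the 4 genes with enough counts were higher and Scgb3a2 was lower (log2 ratio -2.14), where 25.8% were higher and 34.1% lower.

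In the C12FDG-sorted library the secretory genes were near absent. Scgb1a1 had 24 counts, Cyp2f2 5, Scgb3a2 4, Scgb3a1 1 and Bpifa1 0, and 23 of the 24 Scgb1a1 counts were in leukocyte-like cells. Against the unsorted hyperoxia library of pnd7 the log2 ratio was -7.21 for Scgb1a1, -7.92 for Scgb3a2 and -5.11 for Cyp2f2, all 3 called lower where 36.4% of all genes were lower and 8.17% higher. The 0 club-like cells of 493 had an interval of 0 to 0.745%, beside a share of 1.85% in the unsorted library. A wider cell filter (over 500 genes, under 10% mitochondrial counts) added 35 cells to the sorted library, of which 10 were club-like by the nearest cluster mean. It added 172 cells to the unsorted library, of which 34 were. Over all barcodes the sorted library still had 24 Scgb1a1 and 5 Cyp2f2 counts, so none of its added cells held either gene. Whether these 10 were club cells was not tested. In this pair the sort, the experiment and the cell types cannot be told apart.

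Related genes were followed in 5 lists. Of 37 other secretoglobins, 36 had 0 counts in the kept cells of the unsorted libraries, and Scgb1c1 had 1051. Among 13 other BPI fold genes 6 had 0 counts, and Bpifb1 led with 986 counts, ahead of Bpifb5 with 763. Most Scgb1c1 and Bpifb5 counts lay outside club-like cells. Those cells held 12, 0, 47 and 37 Scgb1c1 counts (air and hyperoxia pnd7, then air and hyperoxia pnd60). They held 5, 0, 1 and 2 Bpifb5 counts in the same order. At pnd60, Bpifb1 in club-like cells had 606 counts in air and 207 in hyperoxia (log2 ratio -1.06), a smaller gap than that of Bpifa1, and over all barcodes its ratio was -0.49.

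The goblet and mucin list had 18 genes, of which 8 had enough counts at pnd60. Among kept cells 5 of the 8 were called lower in hyperoxia (Muc5b, Tff2, Ltf, Lyz1 and Reg3g) and none higher, with a median log2 ratio of -1.60, where 0.248% of all genes were lower and 0.271% higher. Club-like cells held 765 of the 782 Reg3g counts of air pnd60. In the Scgb1a1-rich barcodes of that library, the 5 with Scgb3a1 held 381 Muc5b, 234 Tff2 and 955 Reg3g counts. The 10 without Scgb3a1 held 28, 0 and 0. The calls of Muc5b, Tff2 and Reg3g thus leaned on largely the same few barcodes and were not independent. The counts of Ltf and Lyz1 lay mostly outside club-like cells, which held 30 of the 226 Ltf counts and 1 of the 8436 Lyz1 counts in air and 14 of 36 and 2 of 4162 in hyperoxia. In cells that were not epithelial Ltf went from 18.2 CPM in air to 1.50 in hyperoxia. Over all barcodes 2 were called lower, Reg3g at -1.95 and the lysozyme gene Lyz1 at -1.20, with a median of -0.61, where 0.206% of all genes were lower and 0.411% higher. At pnd7 none of its 4 genes with enough counts was called. Muc1, a mucin bound to the cell surface, had a ratio of 0.05 at pnd60 over all barcodes.

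The club cell enzyme list had 23 genes, and 22 had enough counts at pnd60. Among kept cells 4 were called lower in hyperoxia, among them Cyp2a5, Cyp1a1 and Aldh3a1, and none higher, with a median of -0.15, and over all barcodes 2 were (Cyp1a1 and Cyp2a5), with a median of 0.13, beside the same shares of all genes as for the goblet list. Club-like cells held 2 Cyp1a1 counts in air and 0 in hyperoxia at pnd60, and in cells that were not epithelial Cyp1a1 stood at 103 CPM in air and 15.2 in hyperoxia. Over all barcodes Cbr2 was at 0.14, the retinal dehydrogenase Aldh1a1 at 0.17, the glutathione transferase Gstm1 at 0.09 and the monooxygenase Fmo2 at -0.13. At pnd7 none of 16 was called. With age in air, 14 of 21 were called higher, among them Cbr2 and Aldh1a1, and none lower, where 15.1% of all genes were higher and 9.35% lower. Most of these counts lay outside club-like cells, which in air pnd60 held 6358 of 32867 Cbr2 and 1300 of 4576 Aldh1a1 counts. In cells that were not epithelial Aldh1a1 went from 7.59 to 204 CPM with age, and Cbr2 from 91.8 to 89.9. In club-like cells 10 of 13 were called higher and 0 lower, where 10% of genes were higher and 28.7% lower.

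The list of airway transcription factors and Notch pathway genes had 21 genes, of which 18 had enough counts. None was called at pnd60 among kept cells or over all barcodes, and at pnd7 Sox2 alone was called lower among kept cells and none over all barcodes. Nkx2-1, a lung epithelial regulator, was at 0.13 and the Notch target Hes1 at 0.38 at pnd60 over all barcodes, and Cebpa and Cebpb were at -0.07 and -0.06. Several genes of these lists (among them Muc5b, Cyp2a5, Aldh3a1, Aldh1a1 and Cbr2) also served as club cell markers in naming the clusters.

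In the club-like cells, the genes with the highest and lowest ratios set the 5 genes in context. At pnd7 Scgb3a2 had the highest ratio of all, followed by Cotl1 (2.54), Lpl (2.36), Hp (2.01) and Gpx1 (1.75). The lowest were Sftpa1 (-5.84) and Sftpc (-5.74), surfactant genes of type II cells, and Acta2 (-5.53), Eln and Col3a1 (-4.81) of mesenchymal cells. Sftpc took 2.09% of the counts of club-like cells in air pnd7 and 0.0392% in hyperoxia pnd7, and its part in the ratios was not tested. At pnd60 Bpifa1 had the lowest ratio, before Cyp2a5 (-5.50), Reg3g (-4.70), Tff2 (-4.30) and AW112010 (-4.09). The highest were the chaperone genes Hsp90b1 (2.54) and Hspa5 (2.26) of the endoplasmic reticulum, Lgals3 (1.65), Clic3 (1.62) and Slc34a2 (1.35). The class had 13 cells in air and 12 in hyperoxia at pnd60, and 2 cells held 93.2% of its Bpifa1 counts in air. In the Scgb1a1-rich barcodes of air pnd60, the 5 with Scgb3a1 held 299 Cyp2a5, 955 Reg3g and 234 Tff2 counts, against 16, 0 and 0 in those without. The low ratios of these genes and Bpifa1 thus leaned on largely the same few cells.

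Across the 53 clusters, Pearson's r of log2(CPM + 10) described which genes had the pattern most like each of the 5. The clusters share libraries and depth, so no p is given. Among the genes named next, Muc5b, Cyp2a5, Chad, Gabrp and Lypd2 also served as club cell markers in naming the clusters. Scgb3a1 was most like Bpifb1 (0.98), Muc5b (0.96) and Cyp2a5 (0.96), and the genes like Bpifa1 included Bpifb1 (0.98) and Chad (0.97). Most counts of Scgb3a1 and Bpifa1 lay in a few cells of pnd60, so these values rest on the clusters of those cells. Scgb1a1 was most like Gabrp (0.76), Ces1e (0.74) and Lrrc26 (0.74), and Scgb3a2 most like Ces1e (0.88), Lypd2 (0.86) and Gabrp (0.86). Cyp2f2 was most like Gpx2 (0.91), Gabrp (0.89) and Cxcl17 (0.88). Within the 5, Scgb3a1 with Bpifa1 had 0.96 and Scgb1a1 with Cyp2f2 0.91, and the lowest was Scgb1a1 with Bpifa1 at 0.73.

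A cell of air pnd7 in an unnamed cluster stood out among the kept cells. It had 44746 counts, with 12016 Scgb1a1, 2152 Scgb3a2 and 102 Cyp2f2, and also 71 Mki67 and 97 Top2a counts, genes of dividing cells. It held 24.3% of the Scgb1a1 and 60.1% of the Scgb3a2 counts of the kept cells of its library. The richest club-like cell of that library, with 9014 Scgb1a1 counts among 19312, had 0 counts of both cycle genes.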

How the data were processed

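Per the labels, the authors aligned 10x libraries to mm10 with Cell Ranger (3.1.0 in the file headers) and deposited filtered matrices of whole counts of unique molecules per gene and barcode, with no normalization. The 5 genes and the lists were chosen with earlier results of these data known. Kept cells had over 700 and under 8000 genes and under 5% mitochondrial counts (2 mitochondrial features had counts). Cells of all libraries were clustered together without integration (scanpy 1.11.5, 10000 counts per cell, log scale, 3000 variable genes, 50 principal components, 15 neighbours, Leiden resolution 2), with Scgb, Bpif and Cyp2f genes left out, and clusters were named from marker lists. Counts were summed per library and class. CPM has exact Poisson intervals, ratios binomial ones and shares Clopper-Pearson ones (95%, scipy 1.17.1). In a ratio, 0 was replaced by a floor of 3 counts, and no ratio was formed with both counts at or under that floor. Named genes were the 5 genes, up to 4 genes with most counts per list, 3 genes per member by likeness, and the 5 highest and 5 lowest ratios in club-like cells, with those of the Scgb3a1 split and single called list genes added after values were seen. A gene that the rule names is not reported here. Scripts were tested on simulated counts. Seurat 5.3.0 integration and other settings were tried as alternatives.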

Additional observations from a re-analysis of the deposited data

Results flagged for a closer look

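The log2 ratio of hyperoxia to air had opposite signs at pnd7 and pnd60 for several gene and cell sets. The difference between the ages was not tested, since each group was 1 library. In club-like cells it was 0.18 and -0.067 for Scgb1a1 and 3.27 and -0.64 for Scgb3a2 (pnd7, then pnd60). In cluster 43 alone, which is part of the club-like cells, the ratio was -0.51 and 0.10 for Scgb1a1, each with the other sign, and 2.10 and -0.40 for Scgb3a2. In air pnd7, 1 cell held 9014 of the 9511 Scgb1a1 and 463 of the 476 Scgb3a2 counts of that cluster. In cells that were not epithelial the ratio was -1.47 and 1.12 for Scgb1a1 and -0.72 and 1.11 for Scgb3a2. Over all barcodes it was -0.49 and 0.85 for Scgb1a1 and 2.12 and -1.80 for Scgb3a1, the first of these Scgb3a1 values resting on 29 counts.

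Barcodes with 700 genes or fewer, which entered no comparison of kept cells, held the genes above the level of the air control of the same age. At pnd7 Scgb1a1 stood at 504.7 CPM against 429 in air and Scgb3a2 at 142.2 against 16.1. At pnd60 Scgb1a1 stood at 4347 CPM against 1686, Scgb3a1 at 340.9 against 19.8, Scgb3a2 at 195 against 20.9, Bpifa1 at 171.7 against 9.90 and Cyp2f2 at 110.3 against 44.0. The share of these barcodes with a Scgb1a1 count was not higher, at 6.06% against 12.0% in air at pnd7 and 51.8% against 52.6% at pnd60. For Scgb3a1 at pnd60 it was 2.54% against 2.20%. The richest barcode for each gene in hyperoxia pnd60 held 890 of 3545 Scgb1a1, 83 of 278 Scgb3a1 and 39 of 140 Bpifa1 counts.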

How the results depend on the processing

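No replicate could be left out. No paired analysis was possible because there was a single library per condition. The values in club-like cells rest on 12 to 136 cells per library, which limits their precision. Of 55 repeats of the 5 medians over kept cells, 34 lay inside the counting interval of the main median, 17 outside it and 4 turned sign. Of 60 repeats of the 4 medians in club-like cells, 26 lay inside that interval, 29 outside and 5 turned. Of 28 shares of club-like cells 14 moved, of 32 shares of the counts of the 5 genes 25 moved, and of 10 levels in cells that were not epithelial 7 moved. The settings named below as added were chosen after seeing the data. Causes were not tested. Clustering each library on its own named no club-like cluster and gave no value.

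The main medians over kept cells were -1.20 (hyperoxia against air, pnd7), -0.87 (the same, pnd60), 3.29 (pnd60 against pnd7, air), 3.88 (the same, hyperoxia) and -7.21 (sorted against unsorted). With no cell filter the medians of hyperoxia against air turned to 0.31 at pnd7 and 0.21 at pnd60. With no upper limit of genes (added) they turned to 0.16 and 0.17, and the others were 2.65, 3.24 and -8.68. Without doublets the pnd60 median of hyperoxia against air was -1.17. As a mean of CPM per cell it was -0.39, the age medians 0.61 (air) and 1.41 (hyperoxia) and the sorted one -9.30. Thinned to 1000 counts per cell these 4 were -0.39, 0.62, 1.50 and -6.39. Relative to the median of all genes the age medians were 3.06 and 3.60, and relative to genes with 10 counts 3.07 and 3.59, with -6.41 for the sorted library.

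The main medians in club-like cells were 0.18, -0.64, 3.69 and 2.01 (hyperoxia against air at pnd7 and pnd60, then age in air and in hyperoxia). The median at pnd7 turned to -0.48 at Leiden resolution 1, to -0.51 in cluster 43 alone (added), to -0.20 with classes set by the markers of each cell and to -0.0066 under a wider cell filter. It moved to 0.054 after Seurat integration, 0.68 in cells with 100 Scgb1a1 counts (added), 0.42 without the largest cell, 0.52 with the 5 genes kept for clustering and 0.038 relative to all genes. Values of cluster 43 in air pnd7 lean on 1 cell with 9014 of its 9511 Scgb1a1 counts. The median at pnd60 was -0.40 at resolution 1 and in cluster 43, -0.44 after integration, -0.79 in cells with 100 Scgb1a1 counts, -0.96 by the markers of each cell, -0.78 without the largest cell, -0.51 as a mean per cell, -0.76 relative to genes with 10 counts and -0.75 with totals that left out the 5 genes. The age median in air was 2.90 at resolution 1, 2.99 after integration, 2.98 in cells with 100 Scgb1a1 counts, 0.16 by the markers of each cell, 2.87 in cluster 43, 4.10 without the largest cell, 3.98 as a mean per cell, 3.55 with the genes kept, 4.27 relative to all genes, 4.10 relative to genes with 10 counts, 4.08 thinned and 4.25 with totals that left out the genes. In hyperoxia it turned to -0.90 by the markers of each cell and was 1.21 after integration, 1.35 without the largest cell and 1.49 with the genes kept. Inside its wide interval of 1.66 to 4.02 it was 3.73 under the wider filter, 3.62 as a mean per cell, 3.07 at resolution 1 and in cluster 43 and 2.94 thinned.

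The main shares of the counts of the 5 genes in club-like cells were 62.7%, 84.8%, 89.6% and 75.0% (air and hyperoxia pnd7, then air and hyperoxia pnd60). They were 18.8%, 40.2% and 48.4% at resolution 1 (air pnd7, air pnd60, hyperoxia pnd60), 48.1%, 74.5% and 91.9% after integration (both pnd7 libraries, air pnd60), and 49.0%, 88.3%, 94.0% and 68.4% by the markers of each cell. Without doublets they were 90.5% and 86.7% at pnd60, without the largest cell 85.0%, 83.0%, 87.2% and 68.9%, with the genes kept 61.8% and 91.9% in air, with no upper limit of genes 32.1%, 10.1%, 68.6% and 22.4%, and under the wider filter 63.3%, 88.6% and 89.1% (both pnd7 libraries, air pnd60).

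The main shares of club-like cells were 5.89%, 1.85%, 0.296% and 0.252%. In air pnd7 they were 1.13% at resolution 1, 2.95% after integration, 0.477% by the markers of each cell, 1.08% in cluster 43 and 4.90% with the genes kept. In hyperoxia pnd7 they were 0.883% after integration, 1.04% by the markers of each cell and 4.02% under the wider filter. At pnd60 they were 0.137% (air) and 0.126% (hyperoxia) at resolution 1 and in cluster 43, and 4.91% and 4.69% by the markers of each cell. The level of the 5 genes in cells that were not epithelial was 55.9, 21.5, 4.08, 548 and 1165 CPM (air pnd7, hyperoxia pnd7, sorted, air pnd60, hyperoxia pnd60). Thinned, it was 104.0, 37.5, 0, 776.6 and 709.1 CPM, which put hyperoxia pnd60 below air pnd60, and without cells of 100 Scgb1a1 counts (added) it was 447.9 and 512.7 at pnd60.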
